A study of Mus musculus with 8 samples.

Results

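The enzymes that make heme and break it down were followed in endothelial cells of the embryonic mouse brain with and without a working copy of Flvcr2. The set holds 9 genes out of 24421 rows of the deposited table, picked by their role in the pathway. Of these, 6 act in synthesis (Alas1, Alad, Urod, Cpox, Ppox and Fech) and 3 in breakdown (Hmox1, Hmox2 and Blvrb), and all 9 passed the filter on low counts.

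RNA was sequenced from 4 Flvcr2 heterozygous and 4 Flvcr2 knockout libraries of C57Bl6 embryos at E14.5, a midgestation stage of embryonic development. Flvcr2 encodes a membrane transporter of the major facilitator superfamily, first described as a heme importer and later as a choline transporter. The mutant allele makes cells express GFP, and endothelial cells were collected by sorting brain cells positive for GFP and for CD31, a surface protein of endothelium encoded by Pecam1. Both groups therefore carry the mutant allele and no group of unmutated embryos was compared. Each library was made from 2000 to 5000 sorted cells. Whether each library came from its own embryo is not stated, and the p-values therefore reflect only how these libraries scatter, which may be technical.

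Heme is an iron porphyrin that serves as the oxygen- or electron-carrying group of haemoglobins, cytochromes and many oxidases. Its synthesis starts in mitochondria, where an aminolevulinate synthase joins glycine to succinyl-CoA, continues in the cytosol through porphobilinogen to coproporphyrinogen, and returns to mitochondria, where the ring is oxidised and iron is inserted. Heme oxygenases open the ring to biliverdin, releasing iron and carbon monoxide, and biliverdin reductases turn biliverdin into bilirubin. Outside red cell precursors, Alas1 is regarded as the rate-limiting enzyme of synthesis, and free heme represses it while inducing Hmox1.

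Among the 9 enzymes, Cpox was the single gene called different between genotypes, 2.56-fold higher in knockout cells. The sequence before its start is shown for this reason. Cpox encodes coproporphyrinogen oxidase, the enzyme of the space between the mitochondrial membranes that turns coproporphyrinogen into protoporphyrinogen. Its coordinates (Entrez 12892, GRCm38) are chromosome 16, 58670208 to 58680391, + strand. Of the 9 enzymes, 7 had an entry in a RefSeq promoter table (GRCm38.p6); Hmox1 and Fech did not. The 250 bases before each annotated start were searched on both strands for 5 motifs: GATAA, bound by GATA factors; the palindromic NRF1 motif, known to act on Alas1, whose letters are the capitals in the Alas1 line; the E-box CACGTG; TGATGNAA, the composite element of ATF4; and TGACNNNGC, the antioxidant element bound by NRF2 and BACH1. The bases before the Cpox start (chr16:58669958-58670207, + strand) held 1 match, a GATA motif on the opposite strand that reads TTATC and spans 86 to 82 bases before the start. The window of Alas2 (chrX:150547167-150547416, + strand), the aminolevulinate synthase of red cell precursors and a textbook GATA1 target, held its only match of the 5 motifs at the same distance. Both are given 5′ to 3′ with the motif in capitals.
Cpox: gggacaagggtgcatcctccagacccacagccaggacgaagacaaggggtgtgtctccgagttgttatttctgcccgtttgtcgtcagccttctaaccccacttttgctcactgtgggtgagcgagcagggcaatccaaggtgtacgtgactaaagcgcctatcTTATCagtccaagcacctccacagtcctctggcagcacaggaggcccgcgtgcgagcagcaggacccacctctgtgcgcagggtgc
Alas2: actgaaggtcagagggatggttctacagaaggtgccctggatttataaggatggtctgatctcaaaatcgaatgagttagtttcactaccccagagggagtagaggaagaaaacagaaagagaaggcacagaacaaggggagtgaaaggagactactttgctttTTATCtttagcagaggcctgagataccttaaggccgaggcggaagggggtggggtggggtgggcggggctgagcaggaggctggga

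GATAA or its reverse was found in 22.6% of all 32851 promoter windows, so a match of this kind is common, and its use in these cells was not measured. Gata1 itself ranged from 0 to 3.61 CPM (scaled counts, defined below) and did not pass the filter on low counts. Other synthesis genes held other motifs, of which 30 bases each are shown, again with the match in capitals. For Alas1 the NRF1 motif, present in 0.782% of all windows, lies before the more downstream of its 2 listed starts (chr9:106247906-106247935, - strand). Alad (chr4:62520151-62520180, - strand) and Urod (chr4:116994445-116994474, - strand) each carry an E-box, found in 6.02% of windows.
Alas1: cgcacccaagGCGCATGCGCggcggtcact
Alad: gctccgaatgccCACGTGgaccccctcggg
Urod: cactggatcggtCACGTGgttctcaatatg

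The ATF4 element (3.45% of windows) and the antioxidant element (10.2%) were not matched in the window of any of the 7 enzymes. Ppox and Blvrb held none of the 5 motifs. Hmox2 had a GATA match before the first of its 3 listed starts.

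Library totals ran from 9.11 to 35.9 M counts, and counts of a member in a library from 193 to 6845. Endothelial transcripts were abundant in every library: the 12 markers summed to 6766 to 11861 CPM (library-size-scaled counts, using TMM factors) in heterozygous and 9239 to 12757 CPM in the knockouts, with 1 of 12 called by edgeR, Emcn, which rose 2.28-fold. DESeq2 called 5 endothelial markers higher and 1 lower, and edgeR called 3 higher without knockout 2. In that fit 715 of 13992 tested genes were called higher. With all 8 libraries, edgeR called 5.53% of all tested genes higher and 4.02% lower. DESeq2 called 8.56% higher and 8.63% lower of the 12965 genes with an adjusted p. Flvcr2, listed as Mfsd7c, was at 427 ± 124 CPM in heterozygous libraries against 301 ± 73.6 CPM in the knockouts (SD, n = 4 each) and was not called (edgeR adjusted p = 0.209); the sources used here do not say whether transcript of the mutant allele is counted, so this does not check the labels. Transcripts of other cells differed between the groups. The 16 erythroid markers in the table summed to 264 to 629 CPM in heterozygous libraries against 27.1 to 59.4 CPM in the knockouts, with 3 of 6 tested markers lower. The adult globins Hba-a1, Hbb-bt and Hbb-bs had 0 counts everywhere, and Ahsp was not analysed here. The counting program was not given, so 0 counts of these globins cannot be read as absence of their transcripts. The 16 microglia and macrophage markers summed to 668 to 1893 and 175 to 1104 CPM, with 1 of 15 tested markers lower. The 15 neuron markers summed to 308 to 1978 and 97.8 to 302 CPM with 8 lower, the 10 pericyte markers to 361 to 516 and 37.5 to 588 CPM with 2 lower, and the 11 radial glia markers, which include the endothelial genes Vim and Nes, to 1332 to 1474 and 1321 to 1569 CPM with 3 lower; no marker of these 5 lists was higher. DESeq2 called more of them lower: 7 microglia and macrophage, 11 neuron, 4 pericyte and 5 radial glia markers. In bulk RNA, fewer cells of a type and less RNA per cell cannot be told apart. Heterozygous 2 and knockout 1 had 0 and 1 counts of Xist and 331 and 914 counts of the Y-linked gene Ddx3y. This differed from the other 6 libraries, so results are also given without heterozygous 2 and knockout 1. Ddx3y had 28, 56 and 6 counts in heterozygous 3, heterozygous 4 and knockout 4, beside 442, 861 and 1135 of Xist. It had 0 in heterozygous 1, knockout 2 and knockout 3. Whether a library holds more than 1 embryo was not tested.

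Levels of the 9 enzymes were first compared with each other per kilobase of exon, since a longer transcript gives more fragments. In heterozygous cells Hmox1 was the most abundant, at 183 ± 52.5 CPM per kb (SD, n = 4), followed by Alad at 135 ± 11.9 and Urod at 76.3 ± 6.91 CPM per kb. Hmox2, Blvrb and Alas1 formed a middle group at 50.7 ± 6.16, 39.9 ± 6.53 and 32.5 ± 8.67 CPM per kb, whose neighbours overlapped between libraries. Ppox stood below them at 14.8 ± 2.201 CPM per kb. Fech and Cpox were the lowest, at 8.27 ± 2.27 and 7.61 ± 1.93 CPM per kb, and overlapped each other. Hmox1 and Alad also overlapped, whereas Alad and Urod, Urod and Hmox2, Alas1 and Ppox, and Ppox and Fech did not.

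**Figure D1:**
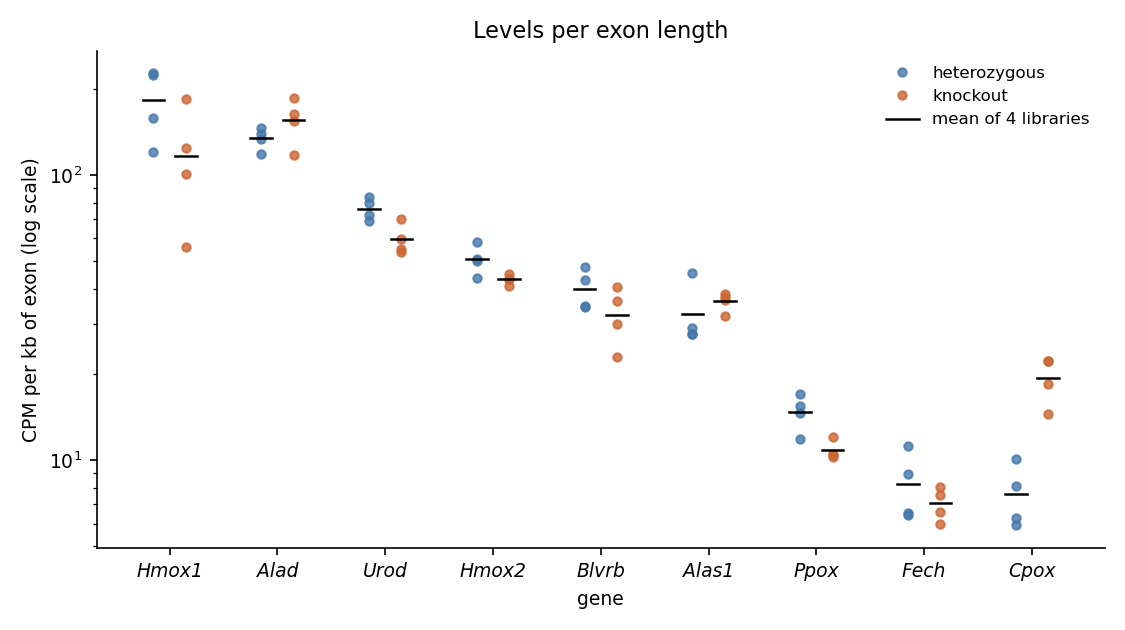
Levels of the 9 enzymes in CPM per kb of exon on a log axis, ordered by the heterozygous mean; each point is a library, blue for heterozygous and orange for knockout, and each black line is a mean of 4 libraries. Cpox goes from the lowest of the set in heterozygous libraries to above Ppox and Fech in knockout libraries.

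In knockout cells the order changed at Cpox, at the top, and between Alas1 and Blvrb. Cpox reached 19.4 ± 3.71 CPM per kb and lay above Ppox (10.8 ± 0.854) and Fech (7.06 ± 0.945) with no overlap between libraries. Alad (156 ± 28.3 CPM per kb) ranked above Hmox1 (116 ± 53.4 CPM per kb), but these overlapped. Alas1 (36.1 ± 2.76 CPM per kb) ranked above Blvrb (32.5 ± 7.64 CPM per kb), again with overlap. These values use the whole annotated exon length, which was longest for Fech at 7198 bases.

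Cpox was at 18.3, 31.3, 25.2 and 19.4 CPM in heterozygous libraries 1 to 4 and at 69.3, 45.0, 57.4 and 68.9 CPM in the knockouts 1 to 4. Every knockout library lay above every heterozygous library. The means were 23.6 ± 5.99 and 60.2 ± 11.5 CPM (SD over 4 libraries each), which gives a log2 fold change of 1.35 ± 0.22 (SE; edgeR quasi-likelihood test, adjusted p = 0.00573 over 13540 tested genes). Without heterozygous 2 and knockout 1 the log2 fold change of Cpox was 1.45 (edgeR adjusted p = 0.0320), and dropping any single library gave values from 1.25 to 1.52, each of them a call.

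Read against the background, this 1 gene of 9 compares with 5.53% of all tested genes called higher in knockout, and 0 of 9 with 4.02% called lower, or 9.55% in either direction. At an unadjusted p under 0.05 in edgeR, 1 member was higher (13.0% of all genes) and 2 were lower, Urod and Ppox (12.6% of all genes). DESeq2 called the same gene higher and 0 members lower (8.56% and 8.63% of the 12965 genes with an adjusted p). Cpox was also the only member whose groups did not overlap, against 9.70% of all genes with every knockout library higher and 7.90% with every one lower. The median log2 fold change of the 9 members was -0.23, against -0.03 over all tested genes, with 3 members above 0 and 6 below.

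Erythroid transcripts, neuron transcripts and genotype moved together in these libraries. With the mean log2 CPM of the erythroid list as a covariate, the log2 fold change of Cpox was 1.62 ± 0.55 (SE; edgeR adjusted p = 0.268), and with a mean over 5 lists of other cell types it was 1.11 ± 0.50 (edgeR adjusted p = 0.613). The error of the estimate widened from 0.22 in both models, and 0 of the 13540 genes were called in either (1781 and 1101 at an unadjusted p under 0.05 in edgeR). The erythroid sum was lower in every knockout library than in any heterozygous library, so it cannot be told apart from genotype here. The part of other cells in the Cpox level was not tested further.

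The step before Cpox is catalysed by Urod, which removes carboxyl groups from uroporphyrinogen in the cytosol. Urod (Entrez 22275; chromosome 4 from 116989965 to 116994436) was at 125, 103, 108 and 119 CPM in heterozygous libraries against 82.0, 104, 88.7 and 80.0 CPM in the knockouts 1 to 4. Knockout 2 reached into the heterozygous range, while the other 3 knockout libraries lay below all heterozygous ones. The log2 fold change was -0.36 ± 0.14 (SE; edgeR adjusted p = 0.140), with a 95% interval from -0.67 to -0.05 before adjustment.

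The step after Cpox belongs to Ppox, the oxidase that forms protoporphyrin. Ppox (Entrez 19044; chromosome 1 from 171276991 to 171281193) had 21.6, 31.2, 26.8 and 28.3 CPM in heterozygous libraries against 19.1, 19.1, 22.0 and 18.7 CPM in the knockouts. Only the highest knockout library, knockout 3, overlapped the lowest heterozygous library, heterozygous 1. Its log2 fold change of -0.45 ± 0.19 (SE) was not called (edgeR adjusted p = 0.170; 95% interval -0.88 to -0.03 before adjustment).

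The ratio of Cpox to its neighbours within a library does not depend on scaling between libraries. Chosen after the values were seen and given without a test, the ratio of Cpox to Ppox counts was 0.687 to 1.003 among heterozygotes, against 2.36 to 3.69 among knockouts. For Cpox to Urod it was 0.147 to 0.305 and 0.433 to 0.861. Neither ratio overlapped between the genotypes.

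**Figure D2:**
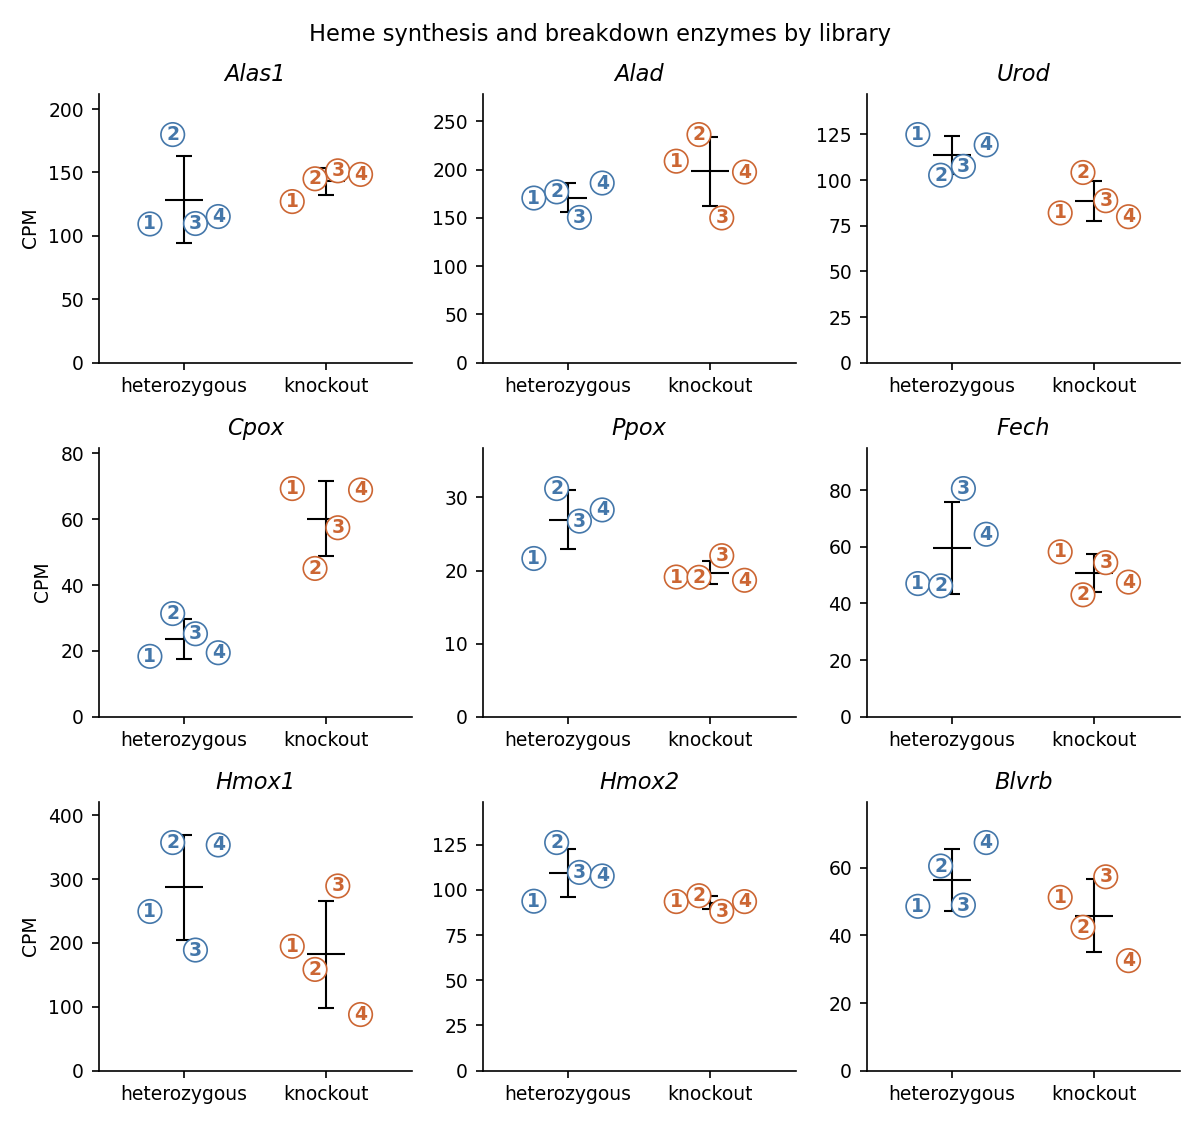
CPM of each member in the 8 libraries; numbers are the library numbers, blue for heterozygous and orange for knockout, and the black bars give mean and SD over 4 libraries, with every axis starting at 0. Cpox alone shows groups that do not overlap, and Hmox1 spreads widely within both genotypes.

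The rate-limiting synthase Alas1 (Entrez 11655; chromosome 9 from 106233455 to 106247954) had 109, 179.9, 109.7 and 115 CPM in heterozygous libraries against 127, 145, 151 and 148 CPM in the knockouts. Heterozygous 2 stood above all others, and the remaining heterozygous libraries lay below all knockout ones. The log2 fold change was 0.15 ± 0.18 (SE; edgeR adjusted p = 0.640), and its 95% interval ran from -0.24 to 0.55, that is from 0.845-fold to 1.47-fold. Without heterozygous 2 it was 0.36 (edgeR adjusted p = 0.164). An antisense transcript, 4930500F10Rik, overlaps 11.7% of the Alas1 exon length, and reads of both strands may be counted together.

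Alad encodes the dehydratase that joins pairs of aminolevulinate into porphobilinogen. Its values (Entrez 17025; chromosome 4 from 62505984 to 62520063) were 171, 177, 150.4 and 186 CPM in heterozygous libraries against 209, 236, 149.9 and 198 CPM in the knockouts. Of the knockout libraries 3 lay above all heterozygous ones and knockout 3 lay below them. The log2 fold change was 0.21 ± 0.16 (SE; edgeR adjusted p = 0.437; 95% interval -0.14 to 0.56).

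Fech, the ferrochelatase that inserts iron into protoporphyrin, ends the pathway. It (Entrez 14151; chromosome 18 from 64456542 to 64489098) was at 47.0, 46.2, 80.6 and 64.4 CPM in heterozygous libraries against 58.2, 43.0, 54.4 and 47.5 CPM in the knockouts. The groups overlapped, and heterozygous 3 and 4 stood above the rest. Alas2, the red cell synthase, was highest in the same pair of libraries. Other erythroid markers were not. In heterozygous 3, Hbb-y (84.9 CPM), Hba-x (23.9 CPM) and the erythroid sum (264 CPM) were each the lowest of the heterozygous libraries. The log2 fold change of Fech was -0.23 ± 0.21 (SE; edgeR adjusted p = 0.524; 95% interval -0.68 to 0.22).

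Uros, which forms the porphyrinogen ring, was not called either. It varied between 5.81 and 31.1 CPM with overlapping groups, and its log2 fold change was -0.34 ± 0.44 (SE; edgeR adjusted p = 0.679).

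Alas2 was at 24.5, 23.0, 112 and 95.5 CPM in heterozygous libraries against 28.0, 8.19, 2.11 and 15.96 CPM in the knockouts. Knockout 1 lay above heterozygous 1 and 2, and the log2 fold change of -2.23 ± 0.72 (SE) was not called (edgeR adjusted p = 0.0806). Alas2 is also a marker on the erythroid list. Of the other erythroid genes, Hbb-y and Hba-x, globins of the embryo, fell 20.9-fold and 21.6-fold and Epor, the erythropoietin receptor gene, 3.28-fold. Hba-x was called in neither fit that left out heterozygous 1 or knockout 1 (edgeR adjusted p = 0.0625 and 0.0523), its log2 fold change moved from -4.43 to -5.14 without knockout 4, and Epor was called in 3 of 8 refits with a library dropped. The part of red cell transcripts in the levels of heme enzymes was not tested.

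Hmox1, the inducible heme oxygenase (Entrez 15368; chromosome 8 from 75093618 to 75100593), varied widely within both genotypes. The CPM values were 249, 357, 189 and 353 in heterozygous libraries 1 to 4, and 195, 159, 289 and 87.9 in knockouts 1 to 4. The groups overlapped: knockout 3 exceeded heterozygous 1 and 3, and knockout 1 exceeded heterozygous 3. Means were 287 ± 82.4 and 183 ± 83.8 CPM (SD over 4 libraries each), which gives a log2 fold change of -0.65 ± 0.33 (SE) that was not called (edgeR adjusted p = 0.236), with a 95% interval from 0.387-fold to 1.05-fold.

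Microglia and macrophages carry Hmox1, and the summed level of the 16 markers moved with it. The sums were 1728, 1618, 668 and 1893 CPM in heterozygous libraries against 674, 486, 1104 and 175 CPM in the knockouts 1 to 4. In the knockout libraries Hmox1 and the marker sum had the same order, from knockout 3 down through 1 and 2 to 4. In the heterozygous libraries both were lowest in heterozygous 3, while Hmox1 was highest in heterozygous 2 and the sum in heterozygous 4. Csf1r and Cx3cr1, defining receptors of microglia chosen after their values were seen, were present in every library, at 22.1 to 213 CPM and 10.2 to 107 CPM. Ctss, the cathepsin S gene and the only called marker of this list, fell 3.19-fold and was called in 2 of 8 refits with a library dropped. The part of these cells in the Hmox1 level was not tested.

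**Figure D3:**
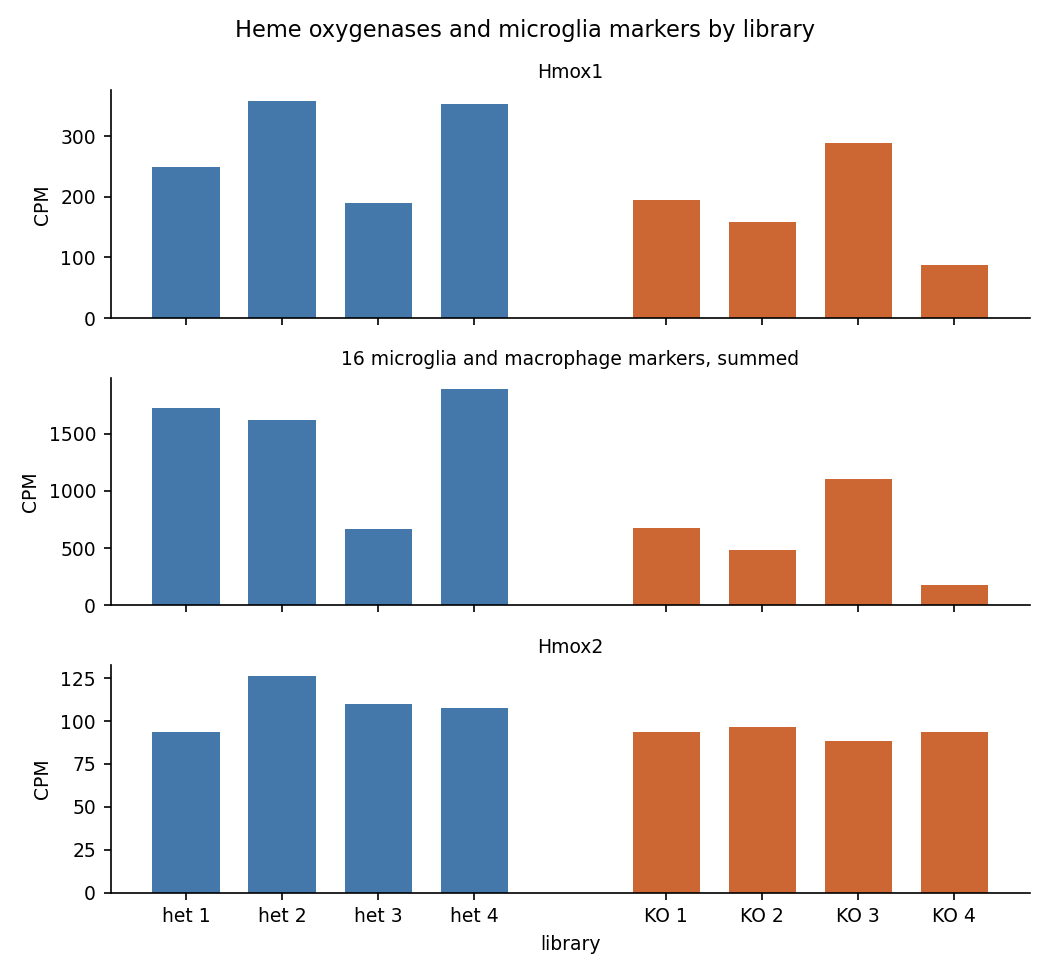
CPM of Hmox1, of 16 microglia and macrophage markers summed, and of Hmox2 in each library, blue for heterozygous and orange for knockout. Hmox1 and the marker sum are both low in heterozygous 3 and knockout 4 and high in knockout 3 among the knockouts, while Hmox2 stays between 88.1 and 126 CPM.

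Hmox2, the constitutive heme oxygenase (Entrez 15369; chromosome 16 from 4726361 to 4766742), was at 93.7, 126, 109.7 and 108 CPM in heterozygous libraries against 93.5, 96.8, 88.1 and 93.5 CPM in the knockouts. It spread far less than Hmox1 within either genotype, and the groups overlapped at heterozygous 1. The log2 fold change was -0.23 ± 0.13 (SE; edgeR adjusted p = 0.308; 95% interval -0.53 to 0.06). Exons of Cdip1 on the other strand cover 41.4% of the Hmox2 exon length, and Cdip1 itself was at 218 ± 12.3 and 209 ± 13.9 CPM, so reads of these genes may not be separated.

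Blvrb, a biliverdin reductase that acts on the isomer of fetal heme breakdown (Entrez 233016; chromosome 7 from 27447978 to 27465981), had 48.6, 60.5, 49.0 and 67.5 CPM in heterozygous libraries against 51.3, 42.4, 57.3 and 32.5 CPM in the knockouts. Groups overlapped, and knockout 4, the library lowest in Hmox1 and in microglia markers, was also lowest here. The log2 fold change was -0.30 ± 0.20 (SE; edgeR adjusted p = 0.393; 95% interval -0.75 to 0.15). Blvra, the main adult reductase, was at 37.4 ± 11.2 and 24.2 ± 4.40 CPM (SD, n = 4 each) and was not called either (log2 fold change -0.63 ± 0.23, SE; edgeR adjusted p = 0.1199).

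Balances within a library were compared for 3 enzyme pairs with exact permutation p-values, two-sided, from all 70 arrangements of the libraries (smallest possible p 0.0286). The log2 ratio of Hmox1 to Hmox2 counts averaged 1.35 ± 0.40 in heterozygotes against 0.85 ± 0.75 in knockouts (SD, n = 4 per genotype; exact p = 0.286, adjusted 0.371). Knockout 4, at -0.09, was the only library with fewer counts of Hmox1 than of Hmox2. For Alas1 to Fech the log2 ratio was 1.12 ± 0.65 and 1.499 ± 0.27 (exact p = 0.343, adjusted 0.371). For Blvrb to Blvra it was 0.62 ± 0.19 and 0.91 ± 0.51 (exact p = 0.371, adjusted 0.371). None of these 3 balances differed beyond the spread of libraries.

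Profiles nearest to the rate-controlling genes were sought among tested genes of at least 5 CPM, as the root mean square difference of centred log2 CPM over the 8 libraries. For Hmox1 they were Zfp703, Spi1 and Efhd2, at 0.27, 0.28 and 0.30. Spi1 encodes PU.1, a transcription factor of macrophages and microglia, and was at 27.2, 26.4, 12.3 and 35.5 CPM in heterozygous libraries against 12.8, 10.02, 21.4 and 5.66 CPM in the knockouts. Among those of Alas1 were Zcchc8 and Slc25a36, at 0.05 and 0.09. Zcchc8 was highest in heterozygous 2, as Alas1 was, and Slc25a36 in knockout 3. For Cpox, added after its values were seen, they were Igf2r, Cx3cl1 and Fam102b, at 0.11, 0.12 and 0.14, which rose 2.44-fold, 2.35-fold and 2.61-fold. A profile includes the difference between genotypes, so rises close to that of Cpox follow from how these genes were picked.

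Among 19 tested genes that carry heme, glycine, glutathione, iron or porphyrins, or chaperone heme, 2 rose and 0 fell, with a median log2 fold change of 0.18. Over all tested genes the shares were 5.53% higher and 4.02% lower, and the median was -0.03. DESeq2 called 3 of the 19 higher and 0 lower, against 8.56% and 8.63% of all genes with an adjusted p. Slc25a39, the importer of mitochondrial glutathione, rose 1.46-fold, from 498 ± 42.4 to 726 ± 119 CPM (SD, n = 4 each; edgeR adjusted p = 0.0482). Gapdh, a glycolytic enzyme that also chaperones heme, rose 1.41-fold (edgeR adjusted p = 0.0459). Each of these calls was kept in 1 of 8 refits with a library dropped and lost under each other scaling tried. Slc25a38, the mitochondrial glycine carrier that feeds heme synthesis, was chosen after its values were seen. It had 37.3, 18.9, 22.8 and 16.9 CPM in heterozygous libraries against 39.6, 47.0, 48.8 and 40.7 CPM in the knockouts, with no overlap. Slc25a38 lay just outside the threshold in edgeR (log2 fold change 0.88 ± 0.25, SE; edgeR adjusted p = 0.0510) and was called by DESeq2 (DESeq2 adjusted p = 0.0179). The heme exporter gene Flvcr1, listed as Mfsd7b and likewise chosen afterwards, was low, at 7.27 ± 2.94 and 9.45 ± 2.68 CPM, and was not called.

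Of 18 tested regulators known to act on Alas1 or Hmox1, 2 rose and 0 fell, against 5.53% and 4.02% of all tested genes. Their median log2 fold change was 0.11, against -0.03 over all genes. DESeq2 called 3 of these regulators higher and 0 lower, against 8.56% and 8.63% of all genes with an adjusted p. Atf4, a stress transcription factor that can induce Hmox1, was at 59.6, 65.2, 51.1 and 71.3 CPM in heterozygous libraries against 177, 181, 95.5 and 261 CPM in the knockouts, with no overlap. It rose 2.89-fold (edgeR adjusted p = 0.00644), remained a call whichever single library was dropped, and was at 1.58 on the log2 scale without heterozygous 2 and knockout 1 (edgeR adjusted p = 0.0549). For Atf4 the log2 fold change was 2.40 with the erythroid covariate (edgeR adjusted p = 0.197) and 0.10 with the score of 5 other-cell lists (edgeR adjusted p = 0.988). Maff, a small MAF protein that pairs with BACH1 or NRF2, rose 1.97-fold, from 13.1 ± 3.05 to 25.7 ± 4.99 CPM, and was called in 3 of those 8 fits. Bach1, the repressor of Hmox1 that heme inactivates, and Nfe2l2, which encodes NRF2, both picked after their values were seen, gave log2 fold changes of -0.32 (edgeR adjusted p = 0.522) and 0.48 (edgeR adjusted p = 0.0702), neither a call in edgeR. Nfe2l2 was higher in every knockout library than in any heterozygous library, and DESeq2 called it (DESeq2 adjusted p = 0.0230).

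Of 15 tested genes listed as targets of BACH1 and NRF2, 1 rose and 1 fell, against 5.53% and 4.02% of all tested genes. DESeq2 called 2 of the 15 higher and 3 lower, against 8.56% and 8.63% of all genes with an adjusted p. Fold changes of the 15 genes were above 0 for 4 and below 0 for 11, against 6488 and 7052 of all tested genes. Their median log2 fold change was -0.20. Fth1, the ferritin heavy chain gene, fell 1.71-fold, from 4619 ± 1322 to 2699 ± 455 CPM (SD, n = 4 each; edgeR adjusted p = 0.0411), and Osgin1 was 2.57-fold higher, at 28.5 ± 12.8 CPM against 11.1 ± 3.15 CPM (edgeR adjusted p = 0.0373). Fth1 was called in 1 and Osgin1 in 2 of 8 refits with a library dropped. Fth1 did not overlap between genotypes, while the Osgin1 value of knockout 2, 13.2 CPM, lay within the heterozygous range.

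Called markers of other cells beside those named above were, of the 8 called neuron genes, the 6 with the smallest p, Dcx, Neurod2, Elavl3, Tubb3, Bcl11b and Neurod6. Their log2 fold changes ran from -2.75 to -2.45, and heterozygous 1 was the highest library for each. Without heterozygous 1 they were -1.81 for Dcx, -2.14 for Neurod2, -1.69 for Elavl3, -1.61 for Tubb3 and -1.76 for Bcl11b, and 1 neuron marker was called in place of 8. Leaving out 1 library gave from 0 called neuron markers, without knockout 4, to 11, without knockout 3. Over all tested genes, 326 were called lower without heterozygous 1, 210 without knockout 4 and 640 without knockout 3. Without knockout 1 Neurod2 was at -3.36. Dcx was called in 6, Neurod2 in 5, Elavl3 and Neurod6 in 4, and Tubb3 and Bcl11b in 3 of 8 refits with a library dropped. The called radial glia genes were Pax6, Slc1a3 and Lhx2 (log2 fold changes -2.63, -1.94 and -2.67) and the called pericyte genes Cspg4 and Des (-3.19 and -2.63). Pax6 was called in all 8 such refits, Slc1a3 in 3, Lhx2 in 2, and Cspg4 and Des in 1 each. Lhx2 was at -2.004 without heterozygous 1 and -3.48 without knockout 3, Cspg4 at -5.10 without knockout 3 and Des at -3.51 without knockout 2.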

How the data were processed

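Whole-number counts per gene were used as the authors deposited them, in 1 table of 24421 genes and 8 libraries. Libraries were made with SMART-Seq v4 and Nextera XT per the labels' protocols. TopHat2, Cufflinks 2.2.1 and the build mm10 are named per the submitters' processing notes; counting program and strand were not given in sources used here. Genes were kept by filterByExpr (minimum count 10, total 15), leaving 13540, scaled by TMM and tested with edgeR 4.0.16 (quasi-likelihood, R 4.3.3, Benjamini-Hochberg), called at an adjusted p under 0.05. Intervals are 95% before adjustment. DESeq2 1.42.0, limma 3.58.1, other scalings, filters, covariates and left-out libraries were alternatives. On simulated counts of 13195 genes for this comparison, 44% of 100 genes changed 2-fold and 85% of 100 changed 4-fold were recovered.

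Members and lists were chosen with earlier results of these data known. Named genes were 12 pathway enzymes, up to 6 called genes of each other list by smallest p, and the 3 nearest profiles of Alas1 and Hmox1; results for some genes under this rule are not reported here. Exon lengths and overlaps come from GENCODE M21, positions and promoters from RefSeq, both on GRCm38. No pair of libraries within a genotype agreed within sampling noise.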

Additional observations from a re-analysis of the deposited data

Results flagged for a closer look

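Of 30 groups of 4 libraries examined, 3 had a library whose gap to its nearest neighbour, as a share of the group's range, passed Dixon's critical value, and chance alone gives about 1 in 20. For Alas1 CPM in heterozygous libraries the share was 0.917, with heterozygous 2 at 179.9 CPM. For Ppox CPM in knockout libraries it was 0.868, with knockout 3 at 22.0 CPM. For the log2 ratio of Blvrb to Blvra in heterozygous libraries it was 0.887, with heterozygous 4 at 0.33.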

How the results depend on the processing

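Cpox was called higher in 19 of 21 refits, and 0 members were called lower in any. With the erythroid or the other-cell score as a covariate, 0 members and 0 genes in all were called in either direction. The 749 genes called higher became 180 without heterozygous 2 and knockout 1, 1125 at an adjusted p under 0.10, and 371 to 715 when 1 library was left out. The 544 called lower became 120 without heterozygous 2 and knockout 1, 307 without heterozygous 1 and knockout 2, 1119 with DESeq2, 956 at an adjusted p under 0.10, and 208 to 640 when 1 library was left out. Scaling by library size alone moved the median of all genes by -0.12 and the share of calls that were higher from 57.9% to 42.6%.

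Replicate numbers did not pair the libraries: correlations of same-numbered deviations ran from -0.05 to 0.21, and 1 of 4 numbers correlated best with itself. With the replicate block, 433 genes were called higher and 435 lower, and Cpox was at 1.37 (edgeR adjusted p = 0.0248).

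Log2 fold changes that turned sign with the erythroid covariate were Alas1 (-0.42), Fech (0.49) and Alas2 (3.36). With the other-cell covariate they were Alas1 (-0.13), Alad (-0.33), Fech (0.0641), Hmox1 (0.49), Blvrb (0.29), Dcx (0.21), Neurod2 (0.43), Elavl3 (0.56), Tubb3 (0.93), Bcl11b (0.64), Neurod6 (0.65) and Lhx2 (0.90). Alas2 is itself part of the erythroid mean. Dcx, Neurod2, Elavl3, Tubb3, Bcl11b, Neurod6 and Lhx2 are part of the other-cell score. These genes were thus adjusted partly for themselves, and their signs here cannot be read as results. Neither covariate overlapped between the genotypes, so its effect cannot be told apart from that of genotype. The cause of the other changes of sign was not tested.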
